A study of Mus musculus with 6 samples.

Results

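Mir3470a, Mir3470b, Mir1195, Mir5098 and Mir1954 are 5 of the 2202 mouse genes that the GENCODE annotation lists as microRNA (miRNA) genes. They were chosen by the ratio of their reads between testis without Dnmt3L and wild-type (WT) testis at 10 days post partum (dpp), where they were among the lowest, so that difference is described here and supports nothing. Their reads were those of 18 to 32 nt found without mismatch on either strand of the gene, which came to 857 distinct sequences over all libraries. In all, 1786 miRNA genes had at least 1 read.

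The study sequenced small RNA of whole C57BL/6 testis in 6 libraries, each a single pool of animals. Of the Dnmt3L line there were WT and knockout (KO) littermates at 16.5 days post coitum (dpc), 7 or 8 mice to a pool, and at 10 dpp, 3 mice to a pool. Of the Miwi2 line there were WT and KO littermates at 10 dpp, also 3 mice to a pool. The WT and KO of one line and age are called a pair (fetal, Dnmt3L of 10 dpp, Miwi2), and values of a pair are given with the WT first. The libraries held 28701563 to 47232494 reads, and a count of 3 reads, the limit a count of 0 allows, was 0.0635 to 0.105 reads per 1e6 reads of the library (RPM). Each group is 1 library, so differences could not be set against replicate error and no test was possible. Intervals are 95% exact intervals that cover counting error only. A ratio was called a change only where its log2 size was above 1.83, a size that 95 percent of the 515 miRNA genes with at least 1000 reads stayed below between the Miwi2 WT and the Dnmt3L WT of 10 dpp. In bulk tissue, fewer cells of a type and less RNA per cell cannot be told apart.

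A miRNA is cut from a hairpin by the nucleases Drosha and Dicer, which fix its ends, so most reads of a miRNA gene share a 5′ end and a length near that of the mature strand. Bases 2 to 8 of the mature strand, the seed, pair with target mRNAs. PIWI-interacting RNAs (piRNAs) of germ cells are made without hairpins, are longer, usually begin with U, and in fetal and early postnatal testis come in large part from transposons. Secondary piRNAs, products of the ping-pong cycle, have A at position 10 and overlap a partner on the other strand by 10 nt. DNMT3L is a cofactor of the enzymes that methylate DNA anew in fetal male germ cells, and MIWI2 is the PIWI protein that carries piRNAs into the nucleus in those cells. Sequence close to that of several miRNA genes of the mouse, these genes among them, is found in B1 elements, short interspersed repeats (SINEs) with very many copies in and between genes.

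The mature strands of 4 of the 5 genes, from the RefSeq table used here (build GRCm38.p6), are shown first because the reads are measured against them, with the seed in capitals.

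mmu-miR-3470b: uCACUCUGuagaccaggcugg
mmu-miR-1195: uGAGUUCGaggccagccugcuca
mmu-miR-5098: gUUACAUGgugaagcccaguu
mmu-miR-1954: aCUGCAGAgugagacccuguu

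The 4 seeds all differ, so these strands form no seed family. Mir3470a is named only. The reads that the libraries held most of are shown next because they tell which part of each gene the counts come from, again with bases 2 to 8 in capitals.

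Mir3470a, 24 nt from position 8: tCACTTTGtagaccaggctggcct
Mir3470b, 24 nt from position 34: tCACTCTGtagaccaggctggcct
Mir1195, 22 nt from position 21: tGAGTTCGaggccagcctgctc
Mir1195, 20 nt antisense from position 42: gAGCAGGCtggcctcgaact
Mir5098, 22 nt from position 61: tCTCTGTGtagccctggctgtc
Mir5098 and Mir1954, 21 nt from position 59 or 60: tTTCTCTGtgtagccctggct

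Positions count from 1 at the 5′ end of the annotated gene. The leading reads of Mir3470b and Mir1195 contain the seeds of their annotated mature strands, while those of Mir5098 and Mir1954 do not.

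The genes lie apart in the genome (build GRCm38). Mir3470a is at chr6:83090311-83090387 on the minus strand, where no other gene overlaps it. Mir3470b is at chr16:44013852-44013977 on the plus strand, antisense within an intron of Gramd1c. Mir1195 is at chr17:70860503-70860600 on the minus strand, antisense within an intron of the transcribed processed pseudogene Gm9320. Mir5098 is at chr5:77272757-77272838 on the plus strand, in an intron of Rest, the gene of a repressor of neuronal genes, and in the same orientation. Mir1954 is at chr2:32652329-32652414 on the plus strand, in an intron of Eng, which encodes endoglin, and in the same orientation. Only Mir5098 and Mir1954 are thus sense to their host.

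The first question was whether a read of these genes could be assigned to them at all. The longest transcripts of 39725 genes that are neither miRNA genes nor pseudogenes were searched for each read. The leading read of Mir3470a was found in 505 of these other genes, sense in 261 and antisense in 253, and that of Mir3470b in 575. The read shared by Mir5098 and Mir1954 was found in 693 other genes. In every library at least 99.17% of the Mir3470a reads, 99.67% of the Mir3470b reads, 99.89% of the Mir5098 reads and 97.996% of the Mir1954 reads were present in 10 or more other genes. For these 4 genes the name repeat-derived therefore describes nearly all reads, and the counts cannot be assigned to the annotated loci.

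By this count of whole reads, Mir1195 went against that name in part. Its share of reads in 10 or more other genes was 43.0% and 33.6% in the fetal pair, 8.69% and 13.5% in the Dnmt3L pair of 10 dpp, and 7.99% and 5.75% in the Miwi2 pair. The Mir1195 share was thus higher in both fetal libraries than in all 4 later ones. All fetal shares of Mir1195, here and below, rest on only 200 and 229 reads. Those of the Dnmt3L KO of 10 dpp rest on 362 reads, against 4870 to 19130 in the remaining libraries. Its 22 nt read lay in 3 other genes, sense in Lmna and Cd22 and antisense in Gm13012, and in no other miRNA gene. The first 19 nt of that read, themselves a read of Mir1195, lay in 752 other genes and in 36 miRNA genes. The leading read thus begins as a widely repeated sequence, and a low count for the whole read does not show another origin. Most Mir1195 reads of 10 dpp were therefore shared with a few transcripts. Reads of Mir1195 found in no other gene were at most 1.0% of its reads, so even these cannot be assigned to the annotated gene alone.

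The 5 genes were not independent readouts, because some reads belong to more than one. Mir5098 and Mir1954 share a stretch of 24 nt on the same strand and 31 distinct reads. Those reads were 83.7% to 98.2% of all Mir1954 reads and 22.3% to 38.1% of Mir5098 reads, so Mir1954 was counted almost wholly from reads of Mir5098. Mir3470a and Mir3470b share a stretch of 19 nt, yet the read they have in common was at most 0.68% of either gene. Their levels were thus counted from almost wholly different reads. The leading reads of these genes differ at a single base, so this follows from matching without mismatch. Whether they have separate sources was not tested. The leading Mir3470a read was held by 10 miRNA genes and the leading Mir3470b read by 52, the listed gene included.

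Mir3470b had the highest level of the 5 genes in each library. It stood at 1009.7 RPM and 579.8 RPM in the fetal pair, at 5866 and 534.6 in the Dnmt3L pair of 10 dpp, and at 5128 and 4120.2 in the Miwi2 pair. Mir3470a stood at 472, 389, 3685, 348, 3816 and 2961 RPM in the same order of libraries. Both genes were high in 3 of the 4 libraries of 10 dpp and low in both fetal libraries and in the Dnmt3L KO of 10 dpp.

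Mir5098 stood at 43.0 and 31.9 RPM in the fetal pair, at 269 and 30.6 in the Dnmt3L pair of 10 dpp, and at 435 and 291 in the Miwi2 pair. Mir1954 stood at 11.5, 10.6, 105, 11.9, 126 and 77.8 RPM in that order. Mir1954 is not a second measurement of this course, since it shares most of its reads with Mir5098. Mir1195 was the lowest gene in the fetal pair, at 4.72 and 4.85 RPM. It reached 128 and 12.6 RPM in the Dnmt3L pair of 10 dpp, and was highest in the Miwi2 pair, at 425 and 485 RPM.

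Counting each read once, the 5 genes together held 1528 and 1005 RPM in the fetal pair, 9949 and 926 in the Dnmt3L pair of 10 dpp, and 9801 and 7856 in the Miwi2 pair. The Mir3470 pair supplied 90.1% to 97.0% of this sum. As a share of all reads on miRNA genes the 5 genes were 0.514%, 0.386%, 1.55%, 0.123%, 2.45% and 2.02% in the same order. They were thus a minor component of the annotated miRNA counts in each library.

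**Figure D1:**
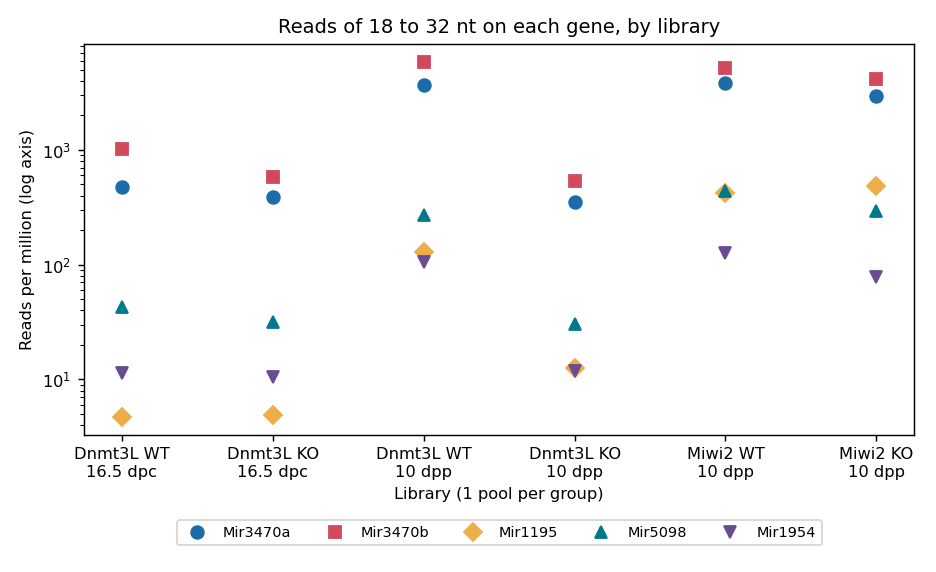
Reads of 18 to 32 nt on each gene (y axis, RPM, log scale) in the 6 libraries (x axis), 1 point per gene and library with no error bars because each group is 1 pool. Mir3470a and Mir3470b lie above the other 3 genes in each of the 6 libraries, and all 5 genes are lower in the Dnmt3L KO than in the other 3 libraries of 10 dpp.

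Where the reads begin differed among the genes. On Mir3470b a single 5′ end, at position 34, took 77.2% and 75.8% of reads in the fetal pair, 81.0% and 74.7% in the Dnmt3L pair of 10 dpp, and 74.9% and 75.0% in the Miwi2 pair. That position is the 5′ end of the annotated mature strand. Within 2 nt of it lay 90.7% to 98.1% of the reads. On Mir3470a, position 8 took 74.55% to 80.5% of the reads. Both genes thus had a fixed 5′ end in all 6 libraries, the Dnmt3L KO of 10 dpp included.

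Mir1195 began at position 21, its annotated mature 5′ end, in 36% and 24.02% of the reads of the fetal pair, in 67.4% and 68.8% in the Dnmt3L pair of 10 dpp, and in 56.4% and 48.2% in the Miwi2 pair. It was the only gene of the 5 with many antisense reads. Its sense share was 46.0% and 32.8% in the fetal pair, 73.8% and 76.8% in the Dnmt3L pair of 10 dpp, and 61.5% and 52.9% in the Miwi2 pair. At 10 dpp the antisense reads began mostly at positions 41 and 42, opposite the 3′ end of the leading sense read, and were 17.96% to 43.9% of the gene's reads. In the fetal libraries, antisense reads at positions 29 and 30 were 30.5% and 37.1% of the reads, against 0.205% to 1.38% at 10 dpp. Position 21 was still the most frequent 5′ end of Mir1195 in each of the 6 libraries.

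Mir5098 and Mir1954 had few or no reads at their annotated mature 5′ ends. On Mir5098, 0 reads began there in any library. On Mir1954 the share was at most 0.617%. Instead, sense reads beginning at position 59 or later were 85.4% to 98.1% of Mir5098 and 88.6% to 98.2% of Mir1954. The most frequent 5′ end was position 59 in Mir5098 (44.8% to 58.0% of its reads) and position 60 in Mir1954 (53.9% to 83.2%). The counts of both genes thus come from a stretch outside the strand that RefSeq names.

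**Figure D2:**
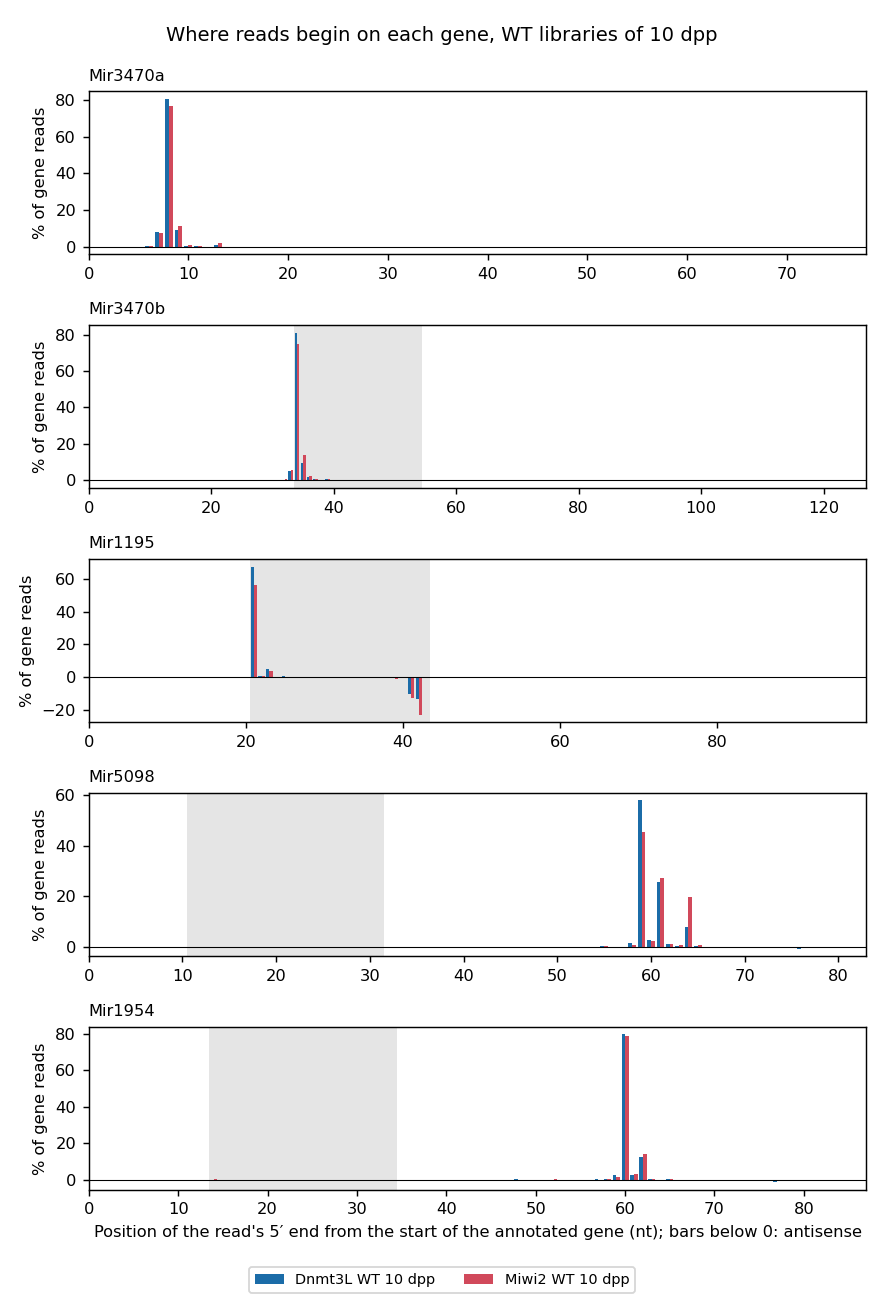
Share of each gene's reads (y axis, %) by the position of their 5′ end along the annotated gene (x axis, nt), in the Dnmt3L WT and Miwi2 WT libraries of 10 dpp, with antisense reads drawn downwards and the RefSeq mature strand shaded. Reads of Mir3470b and Mir1195 begin at the start of the shaded strand (81.0% and 67.4% in the Dnmt3L WT), while those of Mir5098 and Mir1954 begin at position 59 or later.

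Read lengths differed from those of a typical miRNA in the Mir3470 pair. The most frequent length of both genes was 24 nt in 5 libraries and 23 nt in the Dnmt3L WT of 16.5 dpc. On Mir3470a, reads of 23 or 24 nt that begin at position 8 were 69.8% to 77.1% of all reads. On Mir3470b, reads of 23 or 24 nt from position 34 were 35.3% and 32.04% of reads in the fetal pair, 75.0% and 67.6% in the Dnmt3L pair of 10 dpp, and 57.3% and 61.6% in the Miwi2 pair. The remaining fetal reads were largely of piRNA length.

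Reads of 25 to 32 nt were 47.6% and 50.1% of Mir3470b reads in the fetal pair, 7.59% and 7.37% in the Dnmt3L pair of 10 dpp, and 17.1% and 12.1% in the Miwi2 pair. On Mir3470a they were 3.46% to 6.71% in every library. The shorter and the longer reads of Mir3470b had the same 5′ end: 39.0% and 41.3% of fetal reads began at position 34 and had 25 to 32 nt. The fetal shift on Mir3470b was thus one of the 3′ end. Past the stretch of 19 nt that both genes share, their sequences differ. With 0 mismatches, reads that run on as the 27 nt read of Mir3470b does cannot count on Mir3470a. Whether Mir3470a lacked the shift could therefore not be told. The whole libraries also differ in length: 28 nt reads were 7.70% of the reads of 18 to 32 nt in the fetal WT, 1.59% in the Dnmt3L WT library of 10 dpp and 4.45% in the Miwi2 WT library.

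On Mir1195 the most frequent length was 22 nt in all 4 libraries of 10 dpp and 19 nt in both fetal libraries. Reads of 20 to 23 nt were 82.6% to 84.3% of its reads at 10 dpp and 32.5% and 27.9% before birth, where 22.5% and 33.6% had 25 to 32 nt. The 19 nt read of Mir1195 from position 21, with 39 reads in each fetal library, lay in 752 other genes, against 3 for the 22 nt read. Whether the shorter fetal length comes from reads of other repeat copies was not tested. Mir1954 had 20 or 21 nt as its most frequent length in every library, with 52.5% to 85.6% of reads at 20 to 23 nt. Its leading read of 21 nt, from position 60, ends where the stretch of 24 nt that it shares with Mir5098 ends. The Mir5098 read of 24 nt from position 59 begins with the same 21 nt and runs on past that stretch. Reads that run on in this way cannot count on Mir1954 without a mismatch. The Mir1954 lengths are therefore bounded by the matching. On Mir5098 the most frequent length was 24 nt in both fetal libraries, 22 nt in 3 of those of 10 dpp and 19 nt in the Miwi2 KO. A mixture of lengths from 19 to 24 nt was present on Mir5098 in all 6. The leading reads of 24, 22 and 19 nt, from positions 59, 61 and 64, all end at the last base of the annotated gene, which is 82 nt long. Longer reads from these 5′ ends could not be counted, so the Mir5098 lengths are bounded by the annotation.

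**Figure D3:**
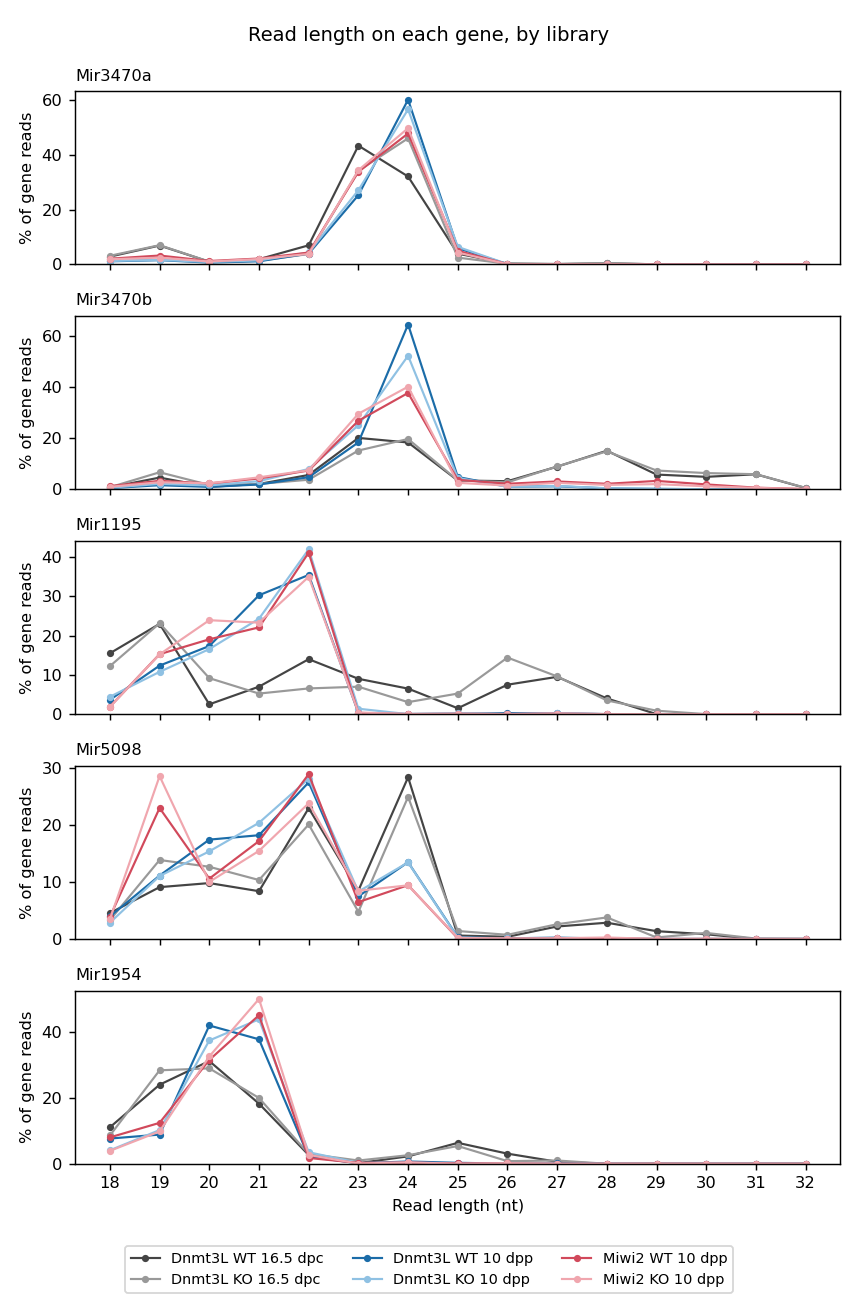
Share of each gene's reads (y axis, %) by read length from 18 to 32 nt (x axis), with 1 line per library. Mir3470a and Mir3470b peak at 23 and 24 nt, Mir3470b (47.6% and 50.1%) and Mir1195 (22.5% and 33.6%) have longer reads of 25 to 32 nt in the fetal libraries, and Mir1195 and Mir1954 lie below 23 nt at 10 dpp.

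U at position 1 was frequent on 4 of the 5 genes. It was present in 75.3% to 81.4% of Mir3470b reads, 79.1% to 88.3% of Mir3470a reads, 69.7% to 91.5% of Mir5098 reads and 85.8% to 96.2% of Mir1954 reads. On Mir1195 it was present in 44.5% to 69.3%. Over all reads of 18 to 32 nt the libraries had 57.7% to 70.2%. Among distinct sequences of the 5 genes only 31.8% to 42.8% began with U, so the high share over reads comes from a few abundant sequences.

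A at position 10 was present in 79.5% to 87.5% of Mir3470a reads and 78.1% to 84.6% of Mir3470b reads. On Mir5098, Mir1954 and Mir1195 it was present in at most 27.8%, 16.4% and 23.1%. The Mir3470 pair thus had U at position 1 and A at position 10 in most of its reads, and the other 3 genes did not have the latter. Reads from the leading 5′ end of either gene, at position 8 or 34, all have both bases. The shares of the pair therefore largely restate its fixed 5′ end and are not a separate sign of secondary piRNAs. Pairs of reads on opposite strands of Mir3470b overlapped by 10 nt more often than by any other length in each library, in 42.1% to 74.6% of the overlaps of 1 to 20 nt. The gene had 29 to 726 antisense reads per library against 15316 to 230073 sense reads. Those at position 43, which overlap the leading sense end by 10 nt, numbered only 27 and 21 in the fetal pair. They numbered 33 and 2 in the Dnmt3L pair of 10 dpp, and 54 and 78 in the Miwi2 pair. Each overlap was weighted by the product of both counts, so the share rests on these few antisense reads. On Mir3470a the share was 0% in the 5 libraries that gave one, with 12 to 45 antisense reads in them. On Mir1195 at 10 dpp the most frequent overlap was 22 nt, and 10 nt took 2.29% to 19.7%. In the fetal pair the most frequent Mir1195 overlap was 9 nt, and 10 nt took 26.2% and 24.2%. Those fetal values rest on only 92 and 75 sense reads and 108 and 154 antisense reads.

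The same measures were taken on 602 other miRNA genes with at least 1000 reads. The most frequent 5′ end held a median of 67.0% of a gene's reads there, against 78.5% in Mir3470a, 77.2% in Mir3470b, 53.9% in Mir1195, 49.96% in Mir5098 and 78.8% in Mir1954 over the 6 libraries together. All 5 values lie between the 5th and the 95th percentile of the other genes, 26.9% and 99.6%. The median share of reads found in 10 or more other genes was 0% among them. The 5 conserved miRNA genes taken as reference, Mir10b, Mir143, Mir202, Mir21a and Mirlet7i, also had 0%, with 58.5% to 99.7% of reads at the leading 5′ end. Reads of 24 to 32 nt were 57.1% of Mir3470a and 61.3% of Mir3470b. The 5 reference genes had less: Mir21a had 34.1%, Mir10b 4.19% and the other 3 at most 0.0552%. Among the 602 other genes the median was 8.97% and the 95th percentile 91.2%, so the pair lay within their range. Of the 602, 423 lay below Mir3470a and 456 below Mir3470b.

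Among all other miRNA genes, 208 had at least 1000 reads and 50% or more of them in 10 or more other genes. The genes whose levels over the 6 libraries were most like the mean of the 5 came from this set: Gm22860 (Pearson r = 0.99), Gm24327 (r = 0.99), Gm25240 (r = 0.99), Gm23268 (r = 0.99) and Gm25690 (r = 0.98). The likeness is over 6 libraries on log2(RPM + 0.1) and is a description, since 86.7% to 98.5% of the reads of these genes are reads of the 5 themselves. Between the 5 genes, r on the same scale was 0.90 (Mir3470b and Mir1195) to 0.99.

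**Figure D4:**
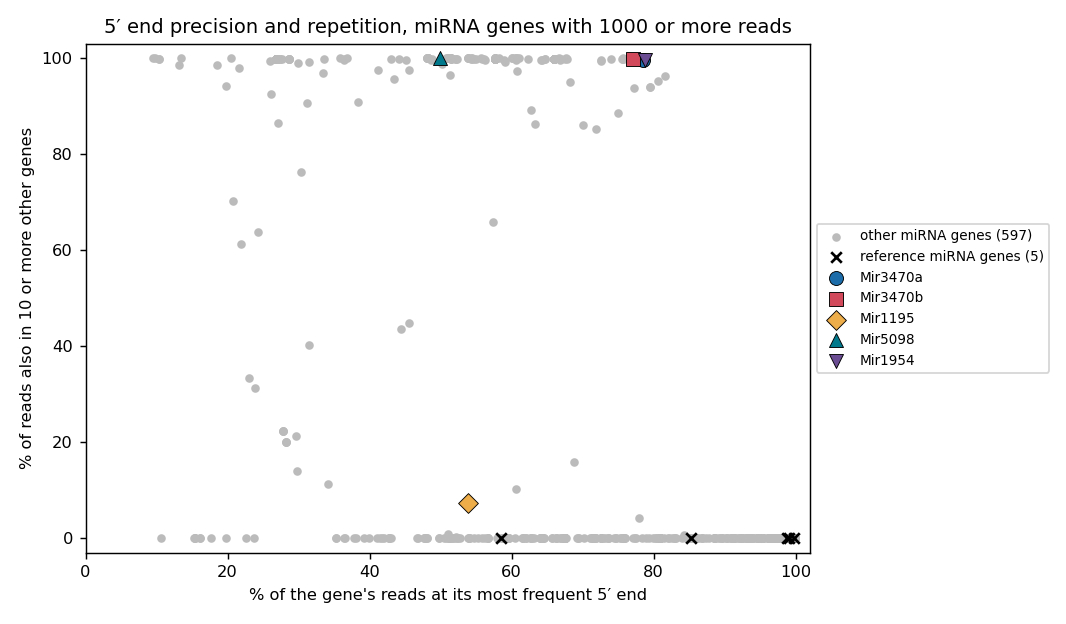
Share of a gene's reads at its most frequent 5′ end (x axis, %) against the share found in 10 or more other genes (y axis, %), 1 point per miRNA gene with at least 1000 reads in the 6 libraries together; crosses mark the 5 reference genes and grey points the other genes. Mir3470a, Mir3470b, Mir5098 and Mir1954 lie at the top, Mir1195 lies at 7.39% on the y axis, and the reference genes lie at 0%.

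Loss of Dnmt3L at 10 dpp is the comparison that chose the genes, and its values are given without a reading. The fold of the KO over the WT was 0.0911 for Mir3470b, 0.0945 for Mir3470a, 0.0986 for Mir1195, 0.114 for Mir5098 and 0.113 for Mir1954. All 5 lie past the size limit, as did 93 of 490 miRNA genes in that direction (percent called 19, against 1.02 higher and 20 in either direction). On Mir3470b, the fold at single read lengths from 18 to 28 nt was between 0.0738 at 24 nt and 0.154 at 21 nt. The reads of 23 or 24 nt from position 34 had a fold of 0.0822 (95% interval 0.0805 to 0.0838) and those of 25 to 32 nt from the same end 0.0944 (0.0854 to 0.104). The Mir1195 reads in 10 or more other genes had a fold of 0.154 (0.112 to 0.207) and the rest 0.0934 (0.0830 to 0.105). Sense reads of 20 to 23 nt from the mature end of Mir1195 had a fold of 0.102 (0.0886 to 0.117) and the antisense reads from positions 41 and 42 had 0.0752 (0.0577 to 0.0966). These classes are parts of the counts by which the genes were chosen, so their low folds add no support.

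The listed genes were not alone in that comparison. Of the 208 repeat-like genes, 179 could be compared, and 80 of these were lower past the limit, with a median log2 ratio of -1.39. Of the 306 miRNA genes that were neither listed nor repeat-like, 8 were lower past the limit, with a median of 0.52. Some repeat-like genes count mostly reads of the 5, as Gm22860 does, with 98.5% of its reads shared and a log2 ratio of -3.40. Others share 0 distinct reads with the 5, as Gm22029 does, whose log2 ratio of -1.39 is that of the median. Among the 80, genes such as Gm22625 and Gm22907 had the same level in each library, so the 80 are not separate observations. By rank of ratio among the 490 genes, Mir3470b held rank 5 from the lowest, Mir3470a rank 16, Mir1195 rank 31, Mir1954 rank 67 and Mir5098 rank 69. The 4 genes lower than Mir3470b were Gm22655 (log2 ratio -3.77), Gm23291 (-3.46), Gm25690 (-3.46) and Gm22773 (-3.46), with 96.5% to 99.97% of their reads in 10 or more other genes.

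Scaling the read counts to miRNA reads or by TMM moved these ratios without turning any. Under TMM scaling over miRNA genes, which takes the trimmed mean of genes as unchanged, Mir5098 (-1.95) and Mir1954 (-1.96) missed the limit of that scaling, 2.09, and the other 3 genes passed it. TMM moved the median log2 ratio of all miRNA genes from -0.29 to 0.89, and the calls over all genes from 5 higher and 93 lower to 68 higher and 66 lower. Reads on miRNA genes were 64.3% of the Dnmt3L WT library and 75.6% of the KO library. Counting distinct sequences instead, scaled to all distinct sequences of the library, did turn the ratio, to a log2 ratio of 0.46 for the 5 genes together.

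At 16.5 dpc none of the 5 genes passed the limit between Dnmt3L KO and WT, where 18 of 433 miRNA genes did in either direction (percent called 4.16, with 1.15 higher and 3 lower). The fold of the KO was 0.824 for Mir3470a (95% interval 0.807 to 0.840), 0.574 for Mir3470b (0.566 to 0.583) and 0.741 for Mir5098 (0.692 to 0.794). Mir1195 at 1.03 (0.846 to 1.25) and Mir1954 at 0.921 (0.811 to 1.05) had fewer than 1000 reads over both libraries. Mir3470b was 1.74-fold higher in the WT, the widest gap of the 5. The ratio of Mir3470b to Mir3470a was accordingly 2.14 and 1.49 in the fetal pair, and 1.34 to 1.59 in the 4 libraries of 10 dpp. These values do not show that the fetal libraries were alike, since only a log2 ratio past 1.83 would have been called.

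Loss of Miwi2 at 10 dpp also left all 5 genes within the limit, which 11 of 522 miRNA genes passed in either direction (percent called 2.11, with 1.53 higher and 0.575 lower). The fold of the KO over the WT was 0.776 for Mir3470a (95% interval 0.770 to 0.782), 0.804 for Mir3470b (0.798 to 0.809), 0.669 for Mir5098 (0.654 to 0.685) and 0.620 for Mir1954 (0.592 to 0.648). Mir1195 had 1.14 (1.12 to 1.16). On Mir1195, sense reads of 20 to 23 nt from the mature end had a fold of 1.01 (0.984 to 1.04), and the antisense reads from positions 41 and 42 had 1.40 (1.35 to 1.45). The higher Mir1195 level in the Miwi2 KO thus lay in its antisense reads, and its log2 ratio of 0.19 became -0.027 on the sense strand and -0.013 under TMM. On Mir3470b the reads of 25 to 32 nt from position 34 had 0.576 (0.564 to 0.588), against 0.864 (0.857 to 0.872) for those of 23 or 24 nt. None of these differences between read classes was tested against replicate error.

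Of the repeat-like genes, 175 of 189 had a ratio below 1 in the Miwi2 comparison and 0 were lower past the limit, with a median log2 ratio of -0.69. All 8 miRNA genes that were higher past the limit were repeat-like, and each of the 8 shared 0 distinct reads with the 5. The repeat-like median is the value of genes such as Gm22029, which also shared 0. Gm22860, with 98.5% of its reads shared with the 5, had -0.37. The median over all 522 genes was -0.18, against -0.37 for Mir3470a and -0.32 for Mir3470b. The median over the 328 genes neither listed nor repeat-like was 0.12.

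Between the WT testes of the Dnmt3L line, all 5 genes were higher at 10 dpp than at 16.5 dpc past the limit, as were 124 of 488 miRNA genes (percent called 25.4 higher, 9.02 lower and 34.4 in either direction). This comparison uses the same Dnmt3L WT library of 10 dpp in which the genes were chosen for being high, so their count is not independent of that choice. The fold was 27.1 for Mir1195 (95% interval 23.5 to 31.4), 9.15 for Mir1954 (8.32 to 10.1), 7.81 for Mir3470a (7.69 to 7.92), 6.25 for Mir5098 (5.94 to 6.57) and 5.81 for Mir3470b (5.75 to 5.87). Scaled to reads on miRNA genes, which were 29.7% of the fetal library and 64.3% of that of 10 dpp, only Mir1195 passed the limit of that scaling, 2.35. That scaling moved the median log2 ratio of all genes from 0.80 to -0.32, and the calls from 124 higher and 44 lower to 39 higher and 107 lower.

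The rise with age differed by read length. Mir3470b reads of 24 nt rose from 184.9 RPM to 3781 RPM (20.5-fold), while its reads of 28 nt fell from 152 RPM to 20.8 RPM (0.136-fold). Relative to all reads of the same length in each library, the folds were 21.4 at 24 nt and 0.571 at 28 nt. The Dnmt3L WT library of 10 dpp held few reads of 28 nt and longer, and its part in the fall at 28 nt was not tested beyond that ratio. In the Miwi2 WT of the same age, Mir3470b had 1932 RPM at 24 nt and 110.3 RPM at 28 nt. On Mir1195, sense reads of 20 to 23 nt from the mature end rose from 25 to 2941 reads, a 131-fold rise in RPM (95% interval 88.5 to 203). Its antisense reads at positions 29 and 30 went the other way, from 61 to 30 reads (0.547-fold, 0.341 to 0.861). At 24 to 32 nt the log2 ratio between ages was -0.85 for Mir1195 and -0.23 for Mir1954, with few reads of that length on either gene. Its reads in 10 or more other genes rose 5.47-fold (4.33 to 6.99) and the rest 43.4-fold (36.05 to 52.8).

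The WT libraries of 10 dpp from the Miwi2 and the Dnmt3L line show how far pools of one age and genotype class can lie apart. The fold of the Miwi2 WT over the Dnmt3L WT was 1.04 for Mir3470a, 0.874 for Mir3470b, 1.196 for Mir1954, 1.62 for Mir5098 and 3.32 for Mir1195. All 5 lay within the limit, which by construction 25 of 515 genes passed (percent called 4.85, with 2.72 higher and 2.14 lower). Mir1195, with a log2 ratio of 1.73, lay closest to it and passed when scaled to miRNA reads (2.42, limit 2.35), and its antisense reads at positions 41 and 42 differed 5.06-fold. Line and library cannot be told apart in this comparison.

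**Figure D5:**
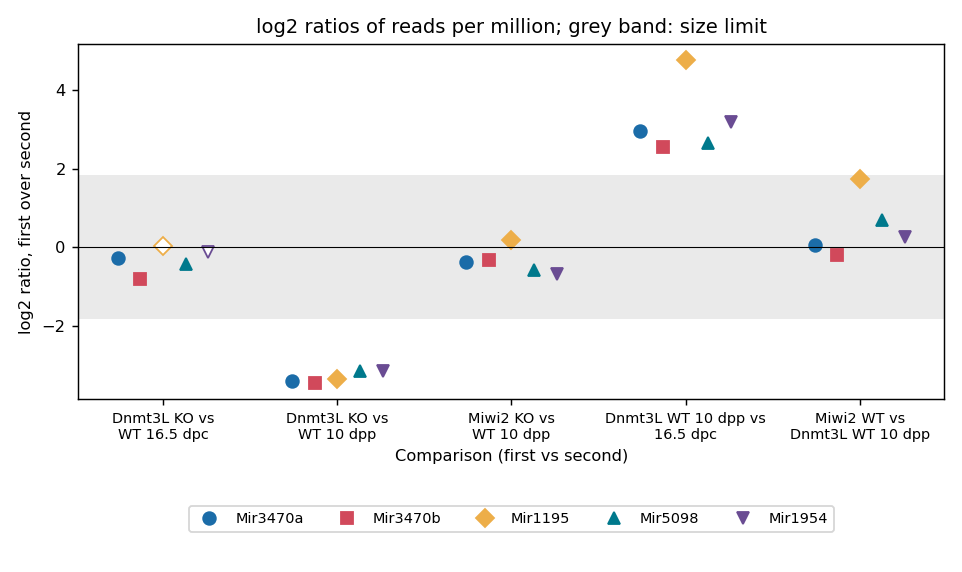
log2 ratio of RPM (y axis) for each gene in the 5 comparisons (x axis), with the size limit of 1.83 as a grey band, and open symbols for genes with fewer than 1000 reads in the comparison. The 5 genes lie below the band in the Dnmt3L comparison of 10 dpp, above it in the comparison of ages, and inside it in the other 3.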

How the data were processed

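Small RNA libraries (TruSeq) were made from Trizol total RNA, per the labels' protocols. The authors deposited, per library, each read sequence with its raw count, and these counts were used as deposited. How reads were trimmed and filtered is not stated in the labels, and the submitters' processing notes name the build mm9. Positions printed are GRCm38 (GENCODE vM21, RefSeq).

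Reads of 18 to 32 nt were matched with 0 mismatches to both strands of the longest transcript of each gene. A read counted whole in each miRNA gene that held it, so genes with near-identical sequence share reads, and values were scaled to 1e6 reads of the library. Counts of 0 were set to 3 reads in ratios. Shares have exact Clopper-Pearson intervals and ratios exact conditional binomial intervals. Both leave out all but counting error, because reads amplified by PCR without molecular identifiers do not count molecules, and whether the pools stand for more than themselves cannot be estimated from 1 library per group. Matching was tested on simulated data. Python 3.11.15, NumPy 2.4.6, SciPy 1.17.1, Matplotlib 3.10.9, R 4.3.3 and edgeR 4.0.16 (TMM scaling only) were used.

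The genes, the reference genes and the comparisons were chosen with earlier results of these data known. Genes named in the text are the 5 listed, 5 reference miRNA genes and the 5 other miRNA genes with the highest Pearson r. Host genes, genes holding a printed read, the 4 genes below Mir3470b in rank and repeat-like genes given as examples were named after their values were seen. Alternatives were other scalings, read lengths, strands, ways of counting and count minimums. These reads do not check the deletions, and repeat annotation was not used.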

Additional observations from a re-analysis of the deposited data

Results flagged for a closer look

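Mir1195 had ratios of opposite sign in the KO comparisons of 10 dpp. Its log2 ratio was -3.34 in Dnmt3L KO against WT and 0.19 in Miwi2 KO against WT, and the difference between these was not tested, since each group is 1 library. The latter ratio was -0.013 under TMM scaling and -0.027 on the sense strand, and at each of these values it lay within the size limit. The former ratio is that of the comparison that chose the genes. Reads longer than the range used, of 33 to 50 nt, were found on the 5 genes in 4 libraries. They numbered 57 (WT) and 40 (KO) at 16.5 dpc and 32 (WT) and 25 (KO) in the Miwi2 line, against 0 in both Dnmt3L libraries of 10 dpp.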

How the results depend on the processing

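No paired analysis was possible because each group is 1 library. Each alternative took its own size limit, 1.38 to 2.54. Counting distinct sequences, scaled to the library's distinct sequences, turned the Dnmt3L comparison of 10 dpp: the log2 ratio was 0.46 for the 5 genes together, 0.93 for Mir3470a, 0.39 for Mir3470b, 0.30 for Mir1195, 0.33 for Mir5098 and 0.31 for Mir1954, with 448 distinct sequences in the WT and 261 in the KO. It gave 0.21 for the 5 together in the Miwi2 comparison. At 24 to 32 nt and at 24 to 28 nt the ratio between ages turned to -0.85 for Mir1195 and -0.23 for Mir1954. For the 5 together, the ratio between ages fell within the limit when scaled to miRNA reads (1.59) and over reads of no other gene (2.29), which also gave 0.69 in the Miwi2 comparison. Between the WT libraries of 10 dpp it moved from -0.022 to 0.66 when scaled to miRNA reads, 0.54 at 20 to 23 nt, 0.57 with reads divided over miRNA genes and 1.82 over reads of no other gene. With reads divided over miRNA genes, at 24 to 32 nt and at 24 to 28 nt, 3 of the 5 genes passed in the Dnmt3L comparison of 10 dpp and 2 in that of ages. Over distinct sequences 0 passed in the former and 3 in the latter. The cause of these shifts was not tested.

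The number of miRNA genes past the limit, in the order Dnmt3L 16.5 dpc, Dnmt3L 10 dpp, Miwi2, age and WT against WT, was 18, 98, 11, 168 and 25. Counts that moved by over 1.5 times were, scaled to miRNA reads, 10 (Dnmt3L 16.5 dpc) and 4 (Miwi2), under TMM 5 (Miwi2), at 20 to 23 nt 2 (Miwi2), and on the sense strand 7 (Miwi2). At 24 to 32 nt they were 3 (Dnmt3L 16.5 dpc), 6 (Miwi2), 40 (age) and 12 (WT against WT), and at 24 to 28 nt 3, 3, 59 and 12. With reads divided they were 9 (Dnmt3L 16.5 dpc), 5 (Miwi2) and 89 (age). Over reads of no other gene they were 2, 2, 2, 33 and 8 in all 5 comparisons. Over distinct sequences they were 2 (Dnmt3L 16.5 dpc) and 6 (Miwi2). With a minimum of 100 reads they were 34 (Dnmt3L 16.5 dpc) and 38 (WT against WT), and with 1 read 73 (Dnmt3L 16.5 dpc), 45 (Miwi2), 302 (age) and 79 (WT against WT). Splits of higher against lower calls also moved by over 10 points under another scaling. Scaled to miRNA reads, WT against WT went from 14 and 11 to 24 and 2, and Miwi2 from 8 and 3 to 2 and 2. Under TMM, WT against WT had 6 and 20, Miwi2 2 and 3, age 87 and 84, and Dnmt3L 16.5 dpc 5 and 7 in place of 5 and 13. Over distinct sequences, Dnmt3L 10 dpp had 112 and 0 in place of 5 and 93, WT against WT 0 and 25, age 143 and 14, Miwi2 6 and 0 and Dnmt3L 16.5 dpc 0 and 2. Other settings that moved a split by that much, such as single length ranges and count minimums, are not listed.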
